A study of Mus musculus with 21 samples.

Results

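The genes described here encode the proteins of the mitochondrial ribosome. They were chosen by symbol as the protein-coding genes of GENCODE vM21 named Mrpl or Mrps followed by a digit, which gave 78 genes, 49 Mrpl and 29 Mrps, of 10917 genes that had at least 1 merged long-read transcript. The level of a gene was its summed TPM (transcripts scaled to a fixed total per library, so a share of it) over the merged transcripts assigned to it. All 78 genes had a merged transcript and all 78 passed the filter on low values, which asked for 1 TPM or more in 2 or more libraries.

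The series followed mouse gametes and preimplantation embryos through 7 stages, each with 2 short-read libraries and 1 long-read pool. Sperm came from DBA/2J males, and MII oocytes from superovulated C57/BL6J females 3 to 5 weeks old. The 1-cell, 2-cell, 4-cell, 8-cell and blastocyst embryos came from crosses of such females with DBA/2J males (DBA/2N in the protocol text of the labels) and were grown in KSOM medium. Oocytes were collected 20 h after hCG, 1-cell embryos at 24 to 26 h, 2-cell at 46 to 48 h, 4-cell at 54 to 58 h, 8-cell at 68 to 70 h and blastocysts at 94 to 96 h. Each short-read library was made from the amplified cDNA of 1 batch of pooled cells. Each long-read pool mixed the cDNA of both batches. P-values therefore measure the spread between batches of pooled material. That spread was estimated for each gene over all stages in the fit together. SEs and p-values thus do not follow the spread of the 2 stages compared. The samples hold no untreated or mutant group. The deposited TPM values hold no read counts, so no counting interval is given for them. In pooled samples, a change in a gene's share of the library cannot be told apart from a change in total RNA or in the kinds of cell present.

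Mitochondrial ribosomes translate the few proteins encoded by mitochondrial DNA, which are subunits of the oxidative phosphorylation complexes. Their RNAs come from mitochondrial DNA, but all their proteins are encoded in the nucleus, made in the cytosol and imported. Mrpl proteins belong to the large subunit, which forms peptide bonds, and Mrps proteins mostly to the small subunit, which reads the mRNA; Mrps18a and Mrps30 carry small-subunit names but sit in the large subunit. Mitochondria of the embryo descend from those of the oocyte, and early embryos live first on maternal transcripts and later on transcripts of their own genome.

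RefSeq promoter sequences of GRCm38.p6, from 250 bases before to 50 bases after the start, were matched by symbol for 69 of the 78 genes. Mrpl4, Mrpl13, Mrpl15, Mrpl19, Mrpl38, Mrpl54, Mrps28, Mrps34 and Mrps35 had no match. In these 6 promoters, shown because the results below turn on their genes, capitals mark the core letters of NRF1, ETS factors (CCGGAAG) and YY1 (AANATGGCG) on either strand; the NRF1 letters are those in capitals in Mrpl12, with any base at the fifth. NRF1 and the ETS factor GABPA are known activators of nuclear genes for mitochondria.
Mrpl12: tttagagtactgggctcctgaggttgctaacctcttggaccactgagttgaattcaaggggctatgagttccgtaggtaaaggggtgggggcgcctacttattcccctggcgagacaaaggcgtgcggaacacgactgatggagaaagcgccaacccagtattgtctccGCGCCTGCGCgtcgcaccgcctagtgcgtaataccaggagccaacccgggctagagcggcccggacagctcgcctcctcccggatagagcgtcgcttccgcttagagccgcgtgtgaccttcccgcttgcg
Mrpl17: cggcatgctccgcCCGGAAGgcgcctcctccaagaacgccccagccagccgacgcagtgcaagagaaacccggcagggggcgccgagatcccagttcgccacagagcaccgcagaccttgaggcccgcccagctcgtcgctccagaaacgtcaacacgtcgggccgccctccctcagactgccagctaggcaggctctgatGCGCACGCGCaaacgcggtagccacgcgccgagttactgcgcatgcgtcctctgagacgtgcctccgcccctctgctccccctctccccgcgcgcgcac
Mrpl43: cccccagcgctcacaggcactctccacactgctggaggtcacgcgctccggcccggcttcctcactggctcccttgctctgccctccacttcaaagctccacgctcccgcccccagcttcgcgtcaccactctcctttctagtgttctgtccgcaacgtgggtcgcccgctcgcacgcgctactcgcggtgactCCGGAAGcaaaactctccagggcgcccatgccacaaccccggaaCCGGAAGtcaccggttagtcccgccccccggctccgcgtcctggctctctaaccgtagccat
Mrps18a: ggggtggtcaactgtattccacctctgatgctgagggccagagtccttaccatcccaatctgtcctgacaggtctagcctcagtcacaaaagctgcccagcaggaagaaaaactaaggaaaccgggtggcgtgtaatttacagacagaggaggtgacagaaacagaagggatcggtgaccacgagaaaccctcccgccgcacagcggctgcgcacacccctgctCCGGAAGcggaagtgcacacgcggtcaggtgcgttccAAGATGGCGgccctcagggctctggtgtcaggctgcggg
Mrpl48: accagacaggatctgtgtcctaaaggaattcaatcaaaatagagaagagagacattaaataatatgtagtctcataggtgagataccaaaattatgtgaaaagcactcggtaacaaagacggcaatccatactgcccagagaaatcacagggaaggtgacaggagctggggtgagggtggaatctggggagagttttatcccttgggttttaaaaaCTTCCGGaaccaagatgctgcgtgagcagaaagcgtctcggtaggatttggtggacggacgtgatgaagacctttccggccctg
Mrps36: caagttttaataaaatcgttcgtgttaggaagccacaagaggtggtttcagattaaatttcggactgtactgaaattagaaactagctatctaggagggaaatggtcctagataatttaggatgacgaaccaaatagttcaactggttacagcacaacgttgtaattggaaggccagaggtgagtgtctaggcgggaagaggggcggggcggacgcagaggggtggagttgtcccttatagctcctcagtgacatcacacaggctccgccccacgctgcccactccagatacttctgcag

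These windows are chr11:120484387-120484686 on the plus strand for Mrpl12, chr7:105811038-105811337 on the minus strand for Mrpl17, chr19:45006393-45006692 on the minus strand for Mrpl43, chr17:46110754-46111053 on the plus strand for Mrps18a, chr7:100583081-100583380 on the minus strand for Mrpl48 and chr13:100744610-100744909 on the minus strand for Mrps36. The Mrpl12 window held an NRF1 core, that of Mrpl17 an NRF1 and an ETS core, that of Mrpl43 a pair of ETS cores, and that of Mrps18a an ETS and a YY1 core. The Mrps36 window held none of the 3.

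The ETS core was found in 25 of 69 promoters (36.2%), against 9.12% of all 27025 promoters and 19.8% of the 7488 promoters of tested genes. The NRF1 core was found in 13 (18.8%), against 4.78% and 11.4%, and the YY1 core in 11 (15.9%), against 2.51% and 5.86%. The TATA box (TATAAA) was found in 4 (5.80%), against 14.2% and 7.65%, the CCAAT letters in 27 (39.1%), against 37.9% and 40.1%, and CACGTG in 5 (7.25%), against 7.24% and 10.5%. Motifs were searched on both strands and may overlap. Median G+C of the windows was 58.0% for these genes and 60.3% for tested genes. A match describes letters and not a bound site. The main long-read transcript began within 50 bases of the RefSeq start in 47 of 69 genes.

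Before the levels, the libraries were checked against markers of their stage. Sperm markers such as Prm1 summed to 17339 and 21188 TPM in sperm and to at most 17.1 TPM elsewhere. Oocyte markers summed to 5152 and 16686 TPM in oocytes, and blastocyst markers to 10416 and 37702 TPM in blastocysts. Markers of the 2-cell stage, such as Zscan4c, summed to 447 TPM in 2-cell replicate 2 but to 26.2 TPM in 2-cell replicate 1, within the 0.301 to 46.8 TPM of the other stages. The library labelled 2-cell replicate 1 therefore went against its label for these markers. The medians and the differences of named genes in comparisons with the 2-cell stage are also given without it. Because the stages share an estimate of the spread, this library also enters the SEs and p-values of the comparisons without the 2-cell stage. None of the 7 cumulus cell markers had a merged transcript.

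The summed level of the 78 genes was higher from the 4-cell stage on than in the oocyte and the 1-cell embryo. It was 3444 and 2571 TPM in oocytes, 3678 and 2422 in 1-cell embryos, 13239 and 5318 in 2-cell embryos, 12703 and 12128 in 4-cell embryos, 15959 and 17164 in 8-cell embryos and 12620 and 17724 in blastocysts. Sperm libraries held 6501 and 7891 TPM. The stage means were 3008 ± 617 TPM (SD, n = 2) in oocytes, 3050 ± 888 in 1-cell embryos, 12415 ± 406 in 4-cell embryos, 16561 ± 852 in 8-cell embryos and 15172 ± 3609 in blastocysts. Every 4-cell, 8-cell and blastocyst library lay above both oocyte and both 1-cell libraries, while 1-cell and oocyte libraries overlapped. The high sum of 2-cell replicate 1 came largely from few genes: Mrps24 alone had 2792 TPM there and 99.2 TPM in replicate 2.

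**Figure D1:**
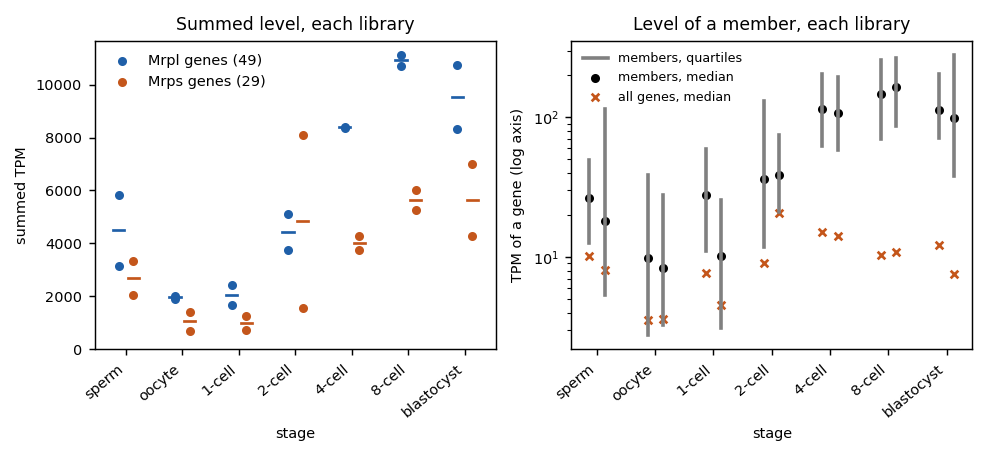
Summed TPM of the 49 Mrpl and 29 Mrps genes in each library with stage means as bars (left), and the median and quartiles of the 78 genes beside the median of all genes on a log axis (right). Both sums are higher in every 4-cell, 8-cell and blastocyst library than in every oocyte and 1-cell library.

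The median gene was also higher from the 4-cell stage on. The median TPM of the 78 genes was 9.90 and 8.39 in oocytes, 28.0 and 10.2 in 1-cell embryos, 36.3 and 38.4 in 2-cell embryos, 114 and 108 in 4-cell embryos, 148 and 164 in 8-cell embryos and 114 and 99.4 in blastocysts. Both 2-cell libraries had nearly the same median in spite of their different sums. The mean level was highest at the 8-cell stage for 28 genes (35.9%, against 8.18% of all genes) and at the blastocyst stage for 21 (26.9%, against 12.8%). Leaving out sperm, 50 of the 78 genes had their lowest mean in the oocyte. The lowest stage was not counted over all genes, so this count has no background.

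**Figure D2:**
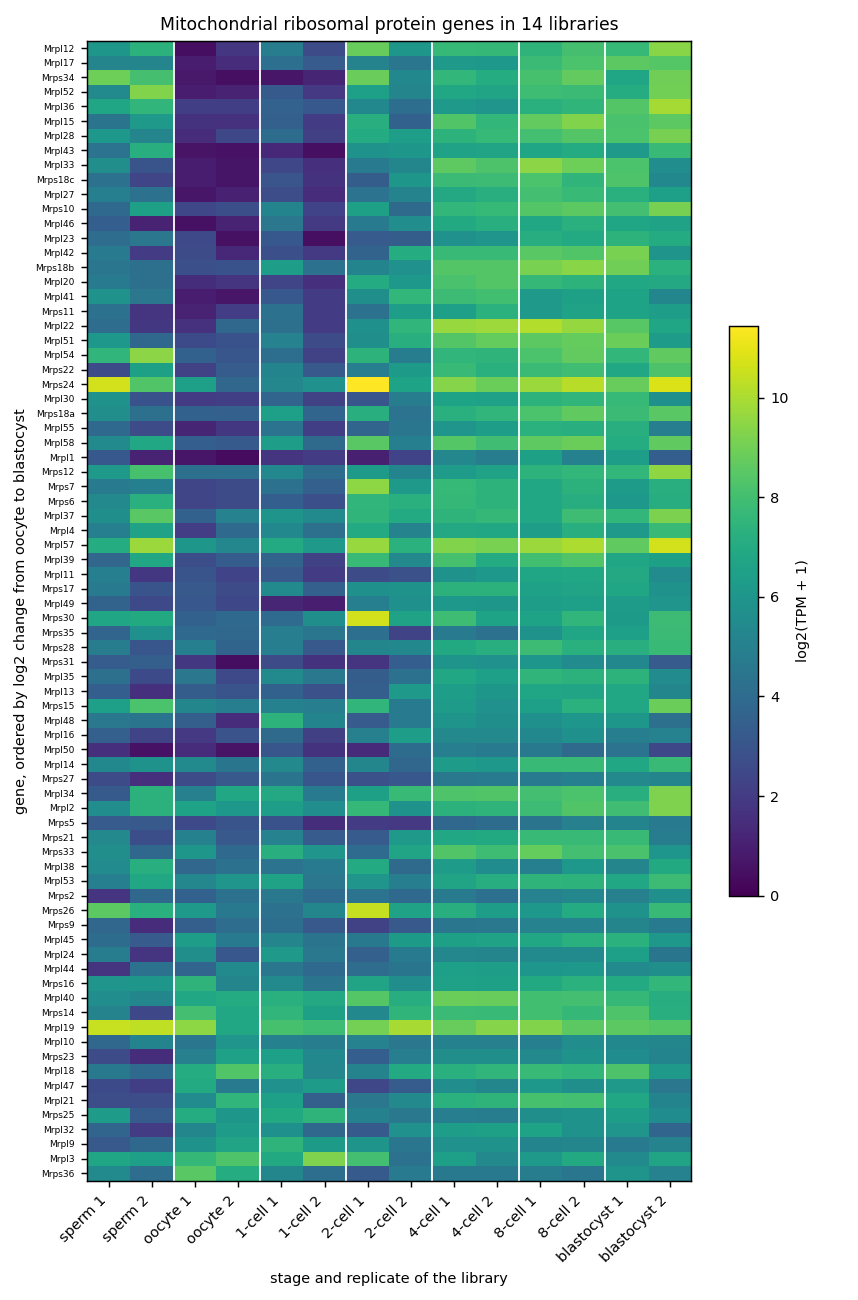
Heat map of log2(TPM + 1) for the 78 genes (rows, ordered by the change from oocyte to blastocyst) in the 14 libraries (columns). Most rows are low in the oocyte and 1-cell columns and high from the 4-cell columns on, and a small group at one end is high in the oocyte.

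From oocyte to blastocyst, most genes of the mitochondrial ribosome rose. Called genes had a Benjamini-Hochberg adjusted p under 0.05 in limma over all 10000 genes tested. Of the 78 genes, 53 rose and 1 fell, where 35.4% of all tested genes rose and 18.0% fell. The median difference was 3.32 on the log2(TPM + 1) scale, against 0.82 for all genes, and 69 of 78 were above 0. All libraries of the blastocyst lay above those of the oocyte for 59 genes and below for 3, where these counts were 48.5% and 26.8% of all genes. Quantile normalization moved the median of all genes from 0.82 to 0.07 and left 43 higher and 1 lower, beside 2659 higher and 2637 lower of all 10000 genes.

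By symbol, 34 of 49 Mrpl genes rose with a median of 3.62, and 19 of 29 Mrps genes rose and 1 fell with a median of 3.17. Genes with a bacterial counterpart rose in 33 of 48 (median 3.49), and those without one in 20 of 30 with 1 fall (median 3.29). Of 7 proteins near the decoding centre and mRNA channel 5 rose (median 4.21), and of 9 proteins of the central protuberance, which contacts the small subunit, 6 rose (median 3.30). Of 5 proteins at the exit tunnel and membrane anchor 2 rose (median 1.13).

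Mrpl12, the L7/L12 protein of the flexible stalk that recruits translation factors, had 0.336 and 2.51 TPM in oocytes, 26.8 and 5.22 in 1-cell embryos, 437 and 65.2 in 2-cell embryos, 204 and 198 in 4-cell embryos, 176 and 271 in 8-cell embryos and 203 and 676 in blastocysts. Both oocyte libraries were below every later library. From oocyte to blastocyst the difference was 7.42 in log2(TPM + 1) (SE 1.00, limma adjusted p = 4.3e-05), a scale that understates the change of genes at such low levels. Its stalk neighbour Mrpl11 rose as well, by 3.59 (SE 0.71, adjusted p = 0.00083). Mrpl10, which anchors the stalk, did not pass the test, with 21.9 and 61.5 TPM in oocytes and 39.4 and 36.7 in blastocysts.

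Mrpl17, a large-subunit protein, had 0.893 and 1.72 TPM in oocytes, 17.1 and 8.74 in 1-cell, 33.6 and 21.2 in 2-cell, 70.9 and 67.3 in 4-cell, 220 and 297 in 8-cell embryos and 376 and 340 in blastocysts. Each stage lay above the one before with no overlap between libraries. The difference was 7.30 (SE 0.66, limma adjusted p = 3.8e-06).

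Mrps34, a small-subunit protein without a bacterial counterpart at chr17:24895116-24897502 (mm10), had 0.695 and 0.384 TPM in oocytes and 0.605 and 1.28 in 1-cell embryos. It then had 452 and 39.4 TPM in 2-cell, 189 and 134 in 4-cell, 277 and 410 in 8-cell embryos and 110 and 505 in blastocysts. Oocyte and 1-cell libraries overlapped at about the level of the filter, and all later libraries were far above them. It rose by 7.28 from oocyte to blastocyst (SE 1.00, limma adjusted p = 5.2e-05).

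The Mrps18 paralogues encode homologues of the bacterial protein bS18, of which Mrps18a sits in the large subunit, and all 3 rose. Mrps18a had 10.7 and 10.3 TPM in oocytes and 223 and 371 in blastocysts, a difference of 4.65 (SE 0.98, limma adjusted p = 0.0012). Mrps18b had 6.00 and 6.42 in oocytes, 567 and 677 in 8-cell embryos and 504 and 159 in blastocysts, a difference of 5.30 (SE 0.81, adjusted p = 0.00012). Mrps18c had 0.832 and 0.554 in oocytes and 312 and 40.0 in blastocysts, a difference of 6.07 (SE 1.00, adjusted p = 0.00022). Mrps18c shares 88 bases with a transcript of Helq on the other strand, and without strand their reads cannot be told apart.

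Mrps36 was the 1 gene of the 78 that fell in this comparison. It was first described as a small-subunit protein and is known as a part of the alpha-ketoglutarate dehydrogenase complex. It had 368 and 134 TPM in oocytes, 36.9 and 16.7 in 1-cell, 8.50 and 25.4 in 2-cell, 23.8 and 24.1 in 4-cell, 28.1 and 21.2 in 8-cell embryos and 60.0 and 32.7 in blastocysts. Both oocyte libraries were above all others from 1-cell on. The difference from oocyte to blastocyst was -2.30 (SE 0.77, limma adjusted p = 0.021), and the call was lost in 3 of 21 alternatives.

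Levels of the other named genes spanned a wide range. Mrpl19, a large-subunit protein, had the highest mean, from 117 to 998 TPM in the 12 libraries from oocyte to blastocyst, with a difference of 0.28 (SE 0.87, limma adjusted p = 0.81). Mrpl22, at the exit tunnel, went from 2.06 and 13.5 TPM in oocytes to 808 and 872 in 4-cell embryos and 356 and 107 in blastocysts, a difference of 4.89 from oocyte to blastocyst (SE 0.99, adjusted p = 0.00094). The lowest means were those of Mrps5, Mrps9, Mrpl50, Mrps27 and Mrpl1, of which Mrps9 (10.0 and 16.2 in oocytes, 36.0 and 24.5 in blastocysts) did not pass the test and the other 4 rose. The call was lost for Mrpl50 in 5 of 21 alternatives (limma adjusted p up to 0.28), for Mrps5 in 4 (up to 0.13) and for Mrps27 in 2 (up to 0.066).

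**Figure D3:**
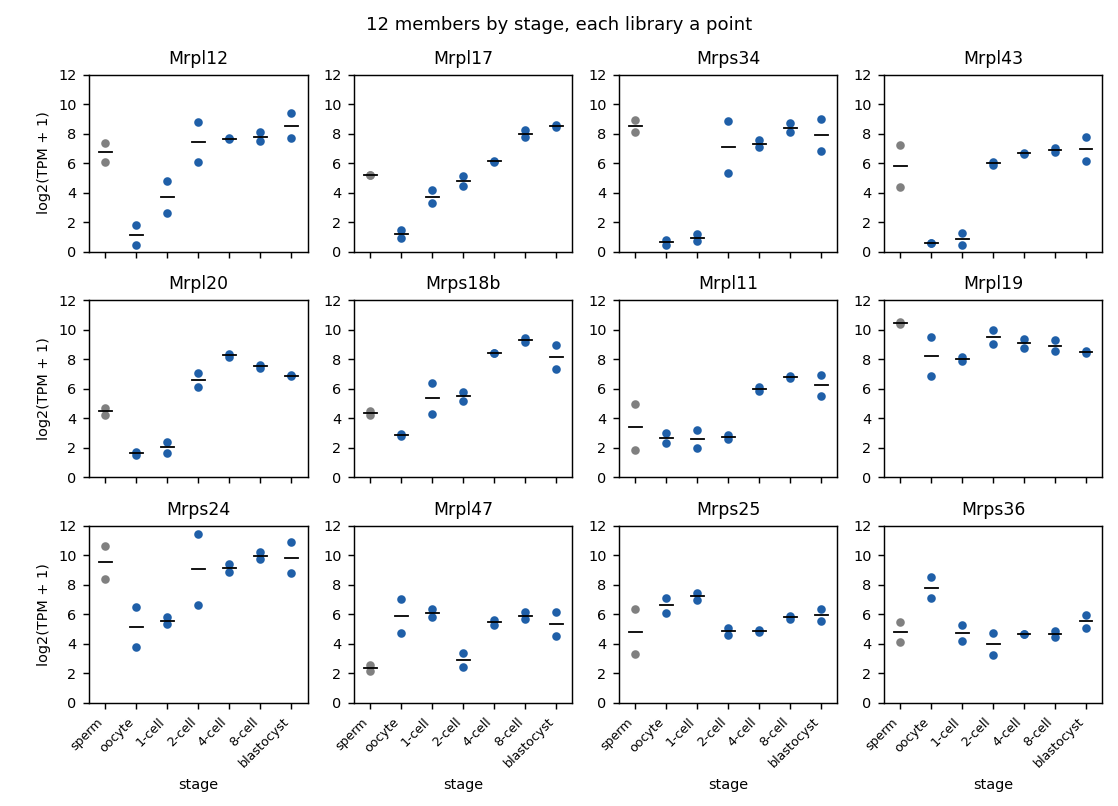
Values of 12 genes as log2(TPM + 1) by stage, each library a point and each stage mean a black bar, with sperm in grey. Mrpl12, Mrpl17 and Mrps34 start near 0 in the oocyte and rise, and Mrps36 starts high and falls.

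The stage-by-stage comparisons split this rise. From oocyte to 1-cell, limma called 0 of 78 genes in either direction (0.33% of all genes rose and 0.05% fell), 8 had an unadjusted p under 0.05, and the median difference was 0.55 against 0.23 for all genes. Libraries did not overlap for 28 higher and 2 lower genes, against 28.6% and 9.02% of all genes. In the 1-cell embryos 69 of 78 genes were higher in replicate 1 than in replicate 2.

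From 1-cell to 2-cell, when the main wave of embryonic transcription begins in the mouse, 18 genes rose and 2 fell, against 26.1% and 6.2% of all genes, so that the share that rose was near the background. The median difference was 1.17, against 0.72 for all genes, and it was 0.36 without 1-cell replicate 2 and 0.31 under quantile normalization. Quantile normalization moved the median of all genes from 0.72 to -0.12. It gave 16 rises and 8 falls among the 78 genes, beside 1591 and 1757 among all 10000 genes tested. Libraries did not overlap for 33 higher and 8 lower genes, against 42.7% and 15.4%. Without 2-cell replicate 1 the median of 0.90 was below the 1.12 of all genes. In all 22 settings 6 genes rose (Mrpl20, Mrpl28, Mrpl41, Mrpl43, Mrpl49 and Mrps34), and no gene fell in all of them.

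Mrps34 rose by 6.14 in this step (SE 1.00, limma adjusted p = 0.00059), and by 4.40 without 2-cell replicate 1. Mrpl43, a large-subunit protein, had 1.43 and 0.389 TPM in 1-cell and 57.4 and 66.4 in 2-cell embryos, a difference of 5.09 (SE 0.70, adjusted p = 0.00023). Mrpl20, a large-subunit protein that binds the rRNA, had 4.29 and 2.05 in 1-cell and 131 and 66.8 in 2-cell embryos, a difference of 4.56 (SE 0.66, adjusted p = 0.00029). The genes that fell were Mrpl47, with 54.2 and 80.2 against 4.42 and 9.22 TPM (-3.17, SE 0.84, adjusted p = 0.011), and Mrps25, with 122 and 174 against 32.0 and 23.3 TPM (-2.37, SE 0.68, adjusted p = 0.016). Libraries of these stages did not overlap for any of the 5 genes. Without 2-cell replicate 1 the differences were 5.20 for Mrpl43, 4.08 for Mrpl20, -2.71 for Mrpl47 and -2.59 for Mrps25. The call of Mrpl47 was lost in 2 alternatives (limma adjusted p up to 0.079) and that of Mrps25 in 3 (up to 0.14).

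Because the 2-cell libraries differed, the 1-cell embryos were also set against the 4-cell embryos, a comparison added after the data were seen. Here 44 of 78 genes rose and 1 fell, against 35.5% and 15.2% of all genes, with a median of 2.49 against 0.89. Libraries did not overlap for 67 higher and 4 lower genes, against 54.9% and 28.9%. Without 1-cell replicate 2 the median was 1.88. Mrpl22 rose by 6.61 (SE 0.99, limma adjusted p = 0.00013). The fall was that of Mrps25, from 122 and 174 to 28.8 and 27.2 TPM (-2.34, SE 0.68, adjusted p = 0.011).

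From 2-cell to 4-cell, 2 genes rose and none fell (1.58% of all genes rose and 1.82% fell), although 71 of 78 were above 0 and the median difference was 1.38 against 0.04 for all genes. Libraries of the 4-cell stage were all higher for 53 genes and all lower for 0, against 30.7% and 22.1% of all genes. Mrpl33, a small protein of the large subunit, had 25.2 and 37.3 TPM in 2-cell and 384 and 302 in 4-cell embryos, a difference of 3.43 (SE 0.81, limma adjusted p = 0.042); its exons overlap those of Gm43809 on the same strand, so its level is uncertain. Mrpl11 had 5.08 and 6.08 against 55.2 and 67.9 TPM, a difference of 3.25 (SE 0.71, adjusted p = 0.034). Without 2-cell replicate 1 the median was 1.54 against -0.20 for all genes, and the differences were 3.16 for Mrpl33 and 3.14 for Mrpl11. Without 2-cell replicate 2 the median was 1.30. The call of Mrpl33 was lost in 13 alternatives and that of Mrpl11 in 8.

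Later steps gave no calls. From 4-cell to 8-cell limma called 0 of 78 (0.77% of all genes rose and 0.9% fell), with 2 at an unadjusted p under 0.05. The fit on the 4 libraries alone called 16 higher and 2 lower. The share of all genes called in that fit is not given, so these counts have no background. The median difference was 0.48, against -0.34 for all genes, and libraries did not overlap for 43 higher and 10 lower genes (22.9% and 47.3% of all genes). From 8-cell to blastocyst limma called 0 (1.51% and 1.49% of all genes), with 3 at an unadjusted p under 0.05, a median of -0.35 against -0.14, and 4 higher and 16 lower genes without overlap (19.7% and 28.1%).

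**Figure D4:**
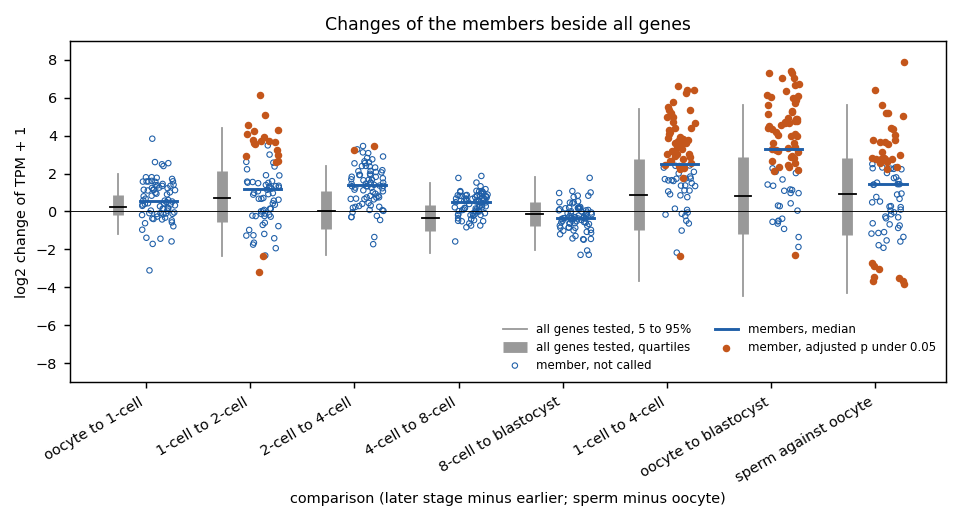
Differences in log2(TPM + 1) of the 78 genes in 8 comparisons, filled orange where called and open blue where not, with their median as a blue line, beside the quartiles, the range from the 5th to the 95th percentile and the median of all genes in grey and black. The medians of 3.32 from oocyte to blastocyst and 2.49 from 1-cell to 4-cell lie well above those of all genes.

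Between the gametes, genes of the mitochondrial ribosome differed in both directions, in shares no higher than those of all genes. In sperm 26 of 78 were higher and 8 lower than in oocytes, against 36.2% and 17.4% of 10735 genes tested, and the median difference was 1.44 against 0.90. Libraries did not overlap for 39 higher and 12 lower genes (49.4% and 26.3%). Quantile normalization moved the median of all genes from 0.90 to -0.01. It gave 17 higher and 12 lower among the 78 genes, beside 2854 and 2873 among all genes. Without sperm replicate 1 the median difference of the 78 genes was 1.04.

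Mrps34 had 486 and 271 TPM in sperm against 0.695 and 0.384 in oocytes, a difference of 7.89 (SE 1.00, limma adjusted p = 9.6e-06). Mrpl52, a large-subunit protein, had 43.3 and 617 TPM against 0.864 and 1.11, a difference of 6.38 (SE 1.04, adjusted p = 9.6e-05), and Mrpl12 was higher by 5.60 (SE 1.01, adjusted p = 0.00024). The genes lower in sperm were led by Mrpl21, with 5.50 and 5.62 TPM against 45.5 and 186 (-3.83, SE 0.97, adjusted p = 0.0034). Mrps23 had 5.28 and 1.86 against 30.4 and 91.7 TPM (-3.67, SE 0.81, adjusted p = 0.0012), and Mrps14 had 34.2 and 4.51 against 260 and 115 TPM (-3.64, SE 0.97, adjusted p = 0.0048). For these genes the gametes did not overlap.

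Other genes that mitochondrial translation needs were counted from oocyte to blastocyst by list, beside the 35.4% of all tested genes that rose, and the lists were not tested against each other. Of 5 mitoribosomal proteins under other symbols 3 rose, among them Chchd1 (mean 3.15 TPM in oocytes and 86.6 in blastocysts) and Aurkaip1 (11.2 and 231), and Dap3, a small-subunit GTPase, had 103 and 93.6 TPM and did not pass. Of 9 tested translation factors 3 rose (33.3%, median 0.87), among them Tufm, the elongation factor that delivers aminoacyl-tRNA, from 0.371 to 42.2 TPM (4.99, SE 0.74, limma adjusted p = 9.2e-05). Of 19 factors for assembly and rRNA modification 7 rose (36.8%) and 1 fell (median 0.74), and of 11 factors for transcription and mRNA stability of mitochondrial DNA 4 rose (36.4%, median 0.95), among them Tfam, which packages that DNA (4.31, SE 0.82, adjusted p = 0.00060). The shares of these 3 lists were near that of all genes. Cytosolic ribosomal proteins rose in 76 of 81 genes (median 6.32) and nuclear oxidative phosphorylation subunits in 72 of 82 (median 4.96). From 1-cell to 2-cell, 60 of 81 cytosolic ribosomal proteins rose (median 3.38), 26 of 82 oxidative phosphorylation subunits rose and 3 fell (median 1.65), and the 78 mitochondrial ones rose in 18. Without 2-cell replicate 1 the median was 3.46 for the cytosolic ones and 1.79 for the oxidative phosphorylation subunits. It was 0.90 for the mitochondrial ones and 1.12 for all genes.

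Long reads gave a second view of the same amplified cDNA, without replicates. By the paper's quality figures the pools differed in read yield and read length, which the intervals do not cover. A long-read transcript was found for 29 of 78 genes in the oocyte pool (37.2%, Wilson 95% interval 27.3 to 48.3), 42 in the 1-cell pool (53.8%, 42.9 to 64.5), 55 in the 2-cell pool (70.5%, 59.6 to 79.5), 71 in the 4-cell pool (91.0%, 82.6 to 95.6), 76 in the 8-cell pool (97.4%, 91.1 to 99.3), 78 in the blastocyst pool (100%, from 95.3) and 66 in the sperm pool (84.6%, 75.0 to 91.0). The intervals cover counting error over genes only. Over all 10917 genes the share stayed between 33.7% in the 1-cell pool and 48.8% in the sperm pool: 34.1% in oocytes, 41.7% in 2-cell, 40.8% in 4-cell and 43.2% in 8-cell embryos and 44.8% in blastocysts. Mrpl12 and Mrps34 had no long read in the oocyte and 1-cell pools and had one in all later pools. Mrps36 had one in the sperm, oocyte, 1-cell and blastocyst pools. Mrpl19 had long reads in the 4-cell and blastocyst pools only, although its TPM was high throughout. The merged annotation was built from these same pools.

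The transcripts of these genes were mostly known ones. The 78 genes had 142 merged transcripts, of which 94 matched an annotated intron chain exactly, 41 were new isoforms, 5 were of other kinds and 2 had a single exon, and 39 genes had 1 transcript. The transcript with the highest TPM matched exactly in 75 genes (96.2%), against 55.9% of all tested genes. These transcripts had a median length of 1010 bases (414 to 2319), against 1387 for all tested genes, and a median of 5 exons. In the shares of exact matches, a transcript without introns could not count as a match. All 78 genes were protein-coding, against 9046 of the 10000 genes tested, so the 2 shares compare unlike sets.

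In 4 genes, Mrpl20, Mrpl41, Mrpl48 and Mrps31, merged transcripts began at places more than 500 bases apart, a limit set after the values were seen. Mrpl48, a central protuberance protein on the minus strand of chromosome 7, had a known start at 100583143 (mm10), 13 bases from the RefSeq start of the promoter printed above, and a second group of 3 new isoforms whose first start lay 8155 bases downstream. The downstream group held 71.2% and 79.1% of the gene's TPM in oocytes, 69.2% and 81.9% in 1-cell, 69.8% and 57.7% in 2-cell, 14.1% and 9.6% in 4-cell, 4.9% and 1.8% in 8-cell embryos and 6.8% and 23.6% in blastocysts. Sperm had 55.3% and 82.2%. Sperm to 2-cell libraries did not overlap with those from 4-cell on. The gene itself had 9.92 and 1.76 TPM in oocytes, 169 and 35.1 in 1-cell embryos and 65.2 and 17.4 in blastocysts.

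Mrpl41, on the minus strand of chromosome 2, had 1 merged transcript with an upstream start, 799 bases before the known one. That transcript shared no annotated intron with Mrpl41 and was assigned to it by exon overlap alone. The upstream start held 100% and 44.0% of the gene's TPM in oocytes, 45.4% and 84.4% in 1-cell and 13.9% and 33.6% in 2-cell embryos. It held 6.5% and 12.6% in 4-cell and 3.1% in each of the 8-cell libraries, and 0.9% and 1.3% in blastocysts. The oocyte total was 0.871 and 0.631 TPM, so its share rests on very low values. The split of TPM among isoforms is an estimate made by salmon, and no test was run on it.

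Some of these genes share a start region with a gene on the other strand. By the outermost annotated ends of the genes, a protein-coding start on the opposite strand lay within 1000 bases upstream for 14 of 78 genes (17.9%), against 752 of 9046 tested protein-coding genes (8.31%). Pairs whose annotated genes overlap at their starts, such as Mrpl46 and Mrps11, are not in this count. The members of these pairs did not always move together from oocyte to blastocyst: 8 partners rose and 2 fell, with a median of 2.17, against 4.17 for their 14 mitochondrial neighbours. Over all tested genes 35.4% rose and 18.0% fell, with a median of 0.82. Mrps34 and Eme2, an endonuclease subunit, started 29 bases apart, and Eme2 rose by 3.56 (limma adjusted p = 0.00070). Mrps18c and Helq, a DNA helicase, also started 29 bases apart, and Helq fell by 3.56 (adjusted p = 0.0016) while Mrps18c rose by 6.07. Mrpl30 and Mitd1 started 66 bases apart, with differences of 4.66 and -1.94 (adjusted p = 0.042 for Mitd1).

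By promoter letters, all 11 genes with a YY1 core rose from oocyte to blastocyst (median 4.65), and 35 of 58 without one rose (median 2.73). Of 25 genes with an ETS core 16 rose (median 4.36), and of 44 without one 30 rose (median 3.23). Of 13 with an NRF1 core 6 rose (median 2.15), and of 56 without one 40 rose (median 3.49). Over all tested genes 35.4% rose, with a median of 0.82. Changes of the other tested genes with the same letters were not counted, so each motif group lacks a background of its own. These are descriptions of small groups, with no test.

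Replicates lay closest together at the 4-cell and 8-cell stages. The SD between replicates of the 78 genes, on the log2 scale, was 0.27 at 4-cell and 0.35 at 8-cell, and 0.84 in oocytes, 1.07 at 1-cell, 1.40 at 2-cell, 1.09 in blastocysts and 1.34 in sperm. Over all genes tested the SD was 0.36 at 4-cell and 0.49 at 8-cell. It was 0.85 in oocytes, 0.74 at 1-cell, 1.39 at 2-cell, 0.93 in blastocysts and 1.13 in sperm. More than 4-fold separated the replicates in 26 of the 78 genes in sperm, 25 at 2-cell and 17 in blastocysts. The same held for 16 at 1-cell and 10 in oocytes, and for none at 4-cell and 8-cell. The difference between replicates moved with the G+C content of the transcripts, with Spearman's rho over the 78 genes of 0.43 at 2-cell and -0.52 in blastocysts, against 0.27 and -0.36 over all genes; these points share their libraries. With G+C content removed within each library, the count of called genes moved by over 1.5 times only from 2-cell to 4-cell, to 5.

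**Figure D5:**
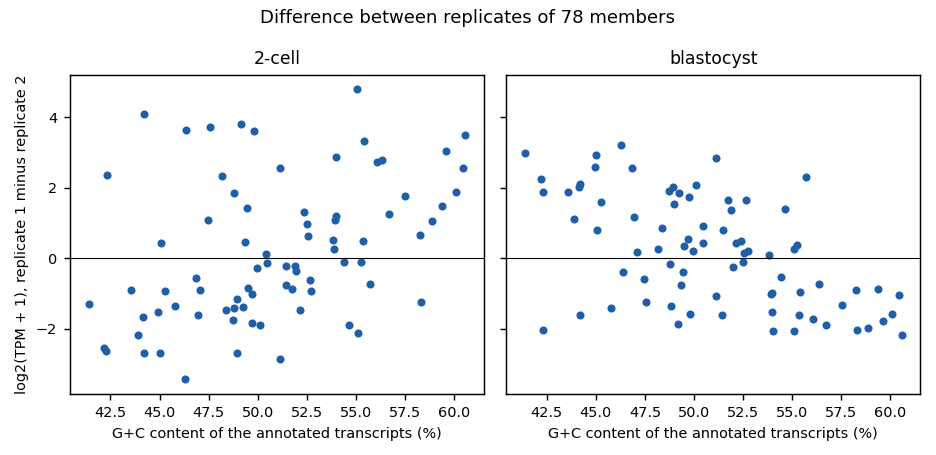
Difference of log2(TPM + 1) between replicate 1 and replicate 2 for the 78 genes against the G+C content of the annotated transcripts in percent, at the 2-cell stage and in blastocysts. The slope of the 78 genes is upward at 2-cell (rho 0.43) and downward in blastocysts (rho -0.52).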

How the data were processed

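Short-read libraries were unstranded and made from amplified cDNA, and the authors quantified them with salmon against the merged long-read transcripts; the deposited values are TPM per transcript, which hold no counts. Long reads were aligned to mm10 with GMAP and merged by the authors. Merged transcripts (22612) were assigned here to GENCODE vM21 genes by same-strand exon overlap (18333 assigned), and TPM was summed per gene. The study used vM20.

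Genes that reached 1 TPM in 2 or more libraries were tested with limma 3.58.1 in R 4.3.3 (lmFit, contrasts.fit, eBayes with trend) on log2(TPM + 1), with stage only, over the 12 libraries from oocyte to blastocyst, or all 14 for sperm. P-values are two-sided, with Benjamini-Hochberg adjustment over all genes tested and calls under 0.05. The fit was tested on simulated data with the measured spread of each stage: it missed nearly all changes of the smaller size simulated and found most of the larger, so a lack of calls says little, and in comparisons with the noisier 2-cell stage, and for sperm, its false calls exceeded the nominal rate. Tables and figures were made with Python 3.11.15. 8-cell replicate numbers follow the sample titles.

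Named genes were, per comparison, the 3 called genes with the largest rise and fall that held in all 4 pairs of libraries, the 5 highest and 5 lowest, the 3 with most transcripts and the Mrps18 paralogues; others named were chosen after their values were seen. The genes and lists were chosen with earlier results of these data known. The comparison of 1-cell with 4-cell and the removal of G+C content were added after the data were seen.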

Additional observations from a re-analysis of the deposited data

How the results depend on the processing

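Of 170 alternative counts of called genes, 138 stayed within 1.5 times the reported count. The counts in this paragraph are given without the share of all genes called under the same alternative. From oocyte to blastocyst the 54 calls became 44 under quantile normalization and 45 to 57 when 1 library was left out, fewest without oocyte replicate 2. Counts from 2-cell to 4-cell depended most on the settings: instead of 2, calls were 0 with a pseudocount of 0.1, in the fit on 4 libraries, under the replicate block and with the spread weighted by stage, 1 with no filter or with transcripts of 1 gene only, 4 with a filter of 5 TPM, 5 with G+C content removed and 12 under quantile normalization, and 0 to 20 leaving out 1 library. From oocyte to 1-cell there was 1 call in the fit on 4 libraries and with the spread weighted by stage, and 0 to 3 leaving out 1 library. From 1-cell to 2-cell the weighted spread gave 9, and leaving out 1 library 9 to 27, in place of 20. From 4-cell to 8-cell the 4-library fit gave 18 and the weighted spread 11, and leaving out 1 library 0. From 8-cell to blastocyst leaving out 1 library gave 0 to 1. Sperm against oocyte gave 22 to 41 in place of 34, and 1-cell to 4-cell 25 to 53 in place of 45. Of 170 alternative medians of the 78 genes, 19 moved by more than the spread between replicates; the median ran from 2.42 to 3.65 from oocyte to blastocyst, 0.31 to 1.71 from 1-cell to 2-cell, 1.30 to 1.54 from 2-cell to 4-cell and 0.27 to 1.70 for sperm against oocyte, and none of the medians changed sign. The cause of these shifts was not tested.

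The summed TPM taken over long-read transcripts of a library's own stage was 5784 in sperm, 2310 in oocytes, 11559 in 4-cell and 15079 in 8-cell embryos, and with transcripts of 1 gene only 11546 in 4-cell and 15430 in 8-cell embryos; each library alone gave the values in the report. Of 891 alternatives for named genes, 833 kept direction and side of the threshold, 48 lost the call and 10 changed sign. The changes of sign were all from oocyte to blastocyst, in genes not called there: Mrpl19 (0.28) ran from -1.03 without oocyte replicate 2 to 1.59 without oocyte replicate 1, Mrpl21 (-0.55) from -1.55 to 0.46 leaving out 1 library, Mrpl47 (-0.52) from -1.68 to 0.63 leaving out 1 library and was 0.049 with G+C content removed, Mrps14 (0.31) ran from -0.28 to 0.90 leaving out 1 library and was -0.019 under quantile normalization, and Mrps23 (-0.38) ran from -1.16 to 0.40 leaving out 1 library.

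Whether the samples were paired across stages could not be told from the replicate numbers. Over 15 pairs of stages the correlation of deviations had both signs, from -0.547 to 0.479, and 5 were over 0.1. The replicate block changed no other count by over 1.5 times.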
